A study of Mus musculus with 35 samples.

Results

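Whole pancreatic tumors were compared with polymorphonuclear myeloid-derived suppressor cells (PMN-MDSC) sorted from such tumors, in untreated mice. The 8 libraries of these groups, 4 of bulk tumor and 4 of tumor PMN-MDSC, are among 35 in the series, and the 11138 genes that averaged 25 or more counts in them, out of 53379 gene identifiers, were tested. The tumors grew from T110299 cells, a single line from a pancreatic tumor of a genetically engineered mouse (Ptf1a-Cre, Trp53 with a floxed and an R172H allele), which had been implanted into the pancreas of female C57BL/6 mice. The sequenced mice are described as left untreated, without poly(I:C)c, although the treatment protocol in the labels names glucose as the control. Bulk tumor was lysed directly, whereas PMN-MDSC were taken from dissociated tumors, enriched with CD11b magnetic beads and sorted as CD11b+ Ly6Clo Ly6G+ cells. Preparation and cell content therefore differ together between the groups and cannot be told apart. Untreated spleen PMN-MDSC, sorted by the same gate, and untreated tumor M-MDSC, sorted as Ly6Chi Ly6G- cells, had 4 libraries each and serve below as a background. The study counts its sequenced MDSC groups in mice, and no such count was found for bulk tumor. The bulk tumor titles carry the same replicate numbers as the untreated tumor PMN-MDSC titles, but whether these number the same mice is not stated. The p-values measure the spread between samples, which for bulk tumor may be technical if these are not separate mice. The groups were compared as unpaired, so any pairing by mouse was ignored. Library numbers 1 to 4 only follow the running number of the deposited columns.

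PMN-MDSC are cells of the neutrophil lineage that accumulate in cancer and can suppress T cells. Neutrophils leave the bone marrow under the control of G-CSF, move along CXCR2 ligands, and carry granule proteins that are transcribed mainly while they mature in the marrow. Pancreatic ductal tumors hold epithelial tumor cells within a stroma of fibroblasts, collagen, vessels and macrophages, next to the enzyme-making acinar cells of the normal gland. A bulk library averages over all of these cells, and in it fewer cells of a type and less RNA per cell cannot be told apart.

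Bulk tumor libraries held between 3771590 and 8886115 counts and tumor PMN-MDSC libraries between 1648775 and 2502390. Levels are given as CPM, counts relative to library sizes scaled by TMM, in the order of libraries 1 to 4, and 3 counts corresponded to at most 0.738 CPM in bulk tumor and 1.92 CPM in tumor PMN-MDSC. The libraries were amplified by PCR without molecular identifiers, so limits of this kind cover counting error only. Fold changes are log2 of tumor PMN-MDSC over bulk tumor ± SE with the adjusted p of a two-sided quasi-likelihood test in edgeR, and a gene is called higher or lower at an adjusted p under 0.001 and at least 2-fold.

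The markers did not match the labels in every respect. Transcripts of Ly6g, the antigen of the sorting gate, stood at 0, 1.83, 10.04 and 1.06 CPM in the 4 tumor PMN-MDSC libraries, at 0 in all bulk tumor libraries and at 42.1, 84.2, 116 and 67.7 CPM in spleen PMN-MDSC. The calprotectin subunit S100a8 was at 80.02, 459, 432 and 238 CPM in tumor PMN-MDSC against 1357 to 4699 CPM in spleen PMN-MDSC, and did not exceed 0.809 CPM in bulk tumor. Both were called lower in tumor than in spleen PMN-MDSC (adjusted p = 3.07e-04 for Ly6g and 4.69e-04 for S100a8, edgeR), where 12.5% of 7971 genes tested were called lower and 9.16% higher. Itgam, which encodes CD11b, reached 296, 395, 421 and 405 CPM in tumor PMN-MDSC against 5.69, 9.11, 9.30 and 10.1 CPM in bulk tumor.

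Macrophage transcripts were abundant in the same sorted libraries. Apoe, a lipid carrier made by macrophages, reached 8304, 7803, 10812 and 10311 CPM in tumor PMN-MDSC, above the 2032 to 6543 CPM of tumor M-MDSC and the 255 to 715 CPM of spleen PMN-MDSC. C1qa, a subunit of complement C1q, was at 691, 572, 664 and 631 CPM against 144 to 357 CPM in tumor M-MDSC. Of 23 macrophage and monocyte genes, 20 were tested against spleen PMN-MDSC, and 15 were called higher and 0 lower in tumor PMN-MDSC. The summed level of all 23 was 15479 to 20360.5 CPM in tumor PMN-MDSC, 11149 to 15925 CPM in tumor M-MDSC, 1452 to 3458 CPM in spleen PMN-MDSC and 3364 to 3926 CPM in bulk tumor (lowest and highest of 4 libraries). Single genes weighed heavily in these sums. Apoe made up much of the sum in tumor PMN-MDSC, and Spp1, at 2083 to 2772 CPM, most of that in bulk tumor. The part of macrophage transcripts in the differences below was not tested.

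Bulk tumor libraries held less of the pan-leukocyte transcript than the sorted cells. Ptprc, which encodes CD45, was at 46.5, 103, 81.6 and 94.2 CPM in bulk tumor and 1148, 1896, 1339 and 1479.6 CPM in tumor PMN-MDSC. The epithelial keratins Krt8 and Krt18 were among the 10 transcripts with the highest FPKM in bulk tumor, whereas the epithelial adhesion gene Epcam was at only 0.246 to 2.22 CPM and the claudins Cldn3, Cldn4 and Cldn7 at no more than 0.504 CPM. Transcripts of the Y chromosome gene Ddx3y reached 4.83, 14.8, 34.98 and 36.8 CPM in bulk tumor and 0, 0, 0.873 and 0.531 CPM in tumor PMN-MDSC, and Xist, the RNA of the inactive X chromosome, 83.1, 157, 121 and 125 CPM in bulk tumor and 1177, 1316, 980.3 and 817 CPM in tumor PMN-MDSC. The methods list female recipients, and the sex of the animal that gave rise to T110299 is not given in the sources used here.

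**Figure D1:**
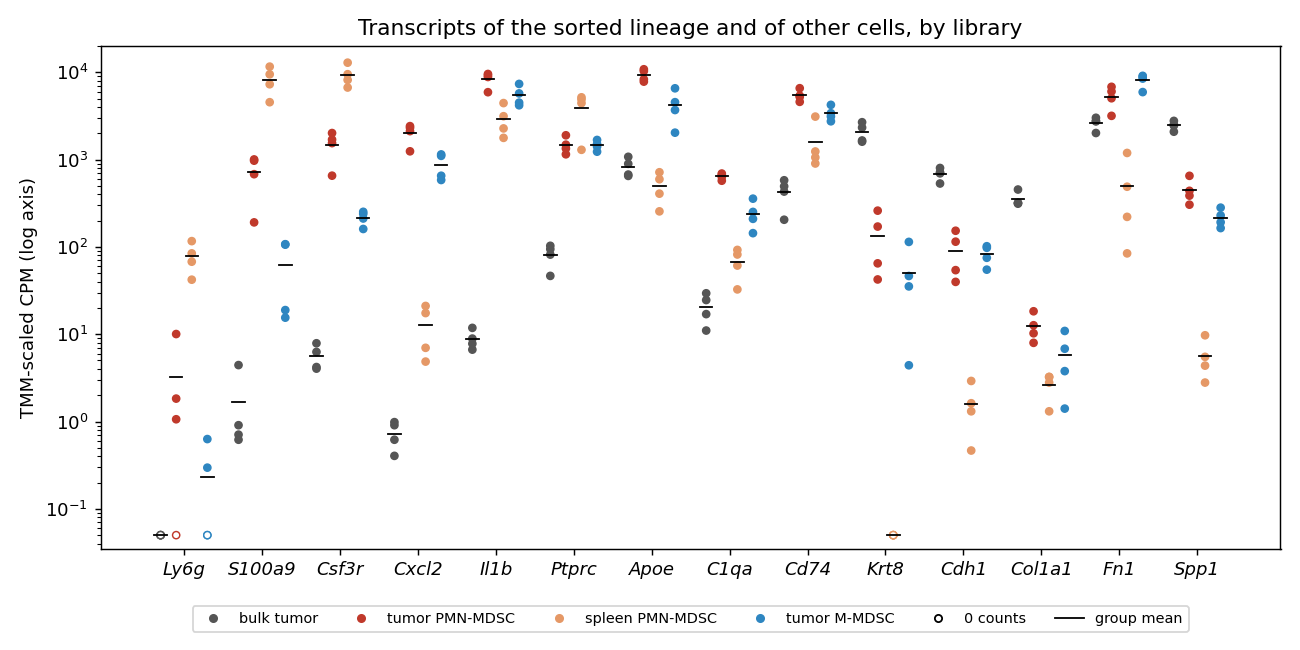
Level of 14 transcripts (TMM-scaled CPM, log axis) in 4 libraries each of bulk tumor, tumor PMN-MDSC, spleen PMN-MDSC and tumor M-MDSC. Points are libraries, open points lie at 0 counts, and lines are group means; Ly6g and S100a9 were lower in tumor than in spleen PMN-MDSC, while Apoe and C1qa were higher in tumor PMN-MDSC than in the other 3 groups.

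Of the 11138 genes tested, 2336 (21%) were called higher and 2178 (19.6%) lower in PMN-MDSC, and in 7213 (64.8%) the libraries of the groups did not overlap. Of the called genes, 889 were at least 8-fold higher and 745 at least 8-fold lower, where the smaller depth of the sorted libraries limits how large a fold toward bulk tumor can be measured. The median log2 fold change over all genes was −0.11. With library totals or upper-quartile scaling in place of TMM the median moved to −0.38 and −0.39, and the share of called genes that were higher moved from 51.8% to 40.6% and 40.3%.

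Short stretches upstream of 4 of the genes that differed most, or that define the lineage, are shown here because NF-kB, C/EBP and ETS factors such as PU.1 are known regulators of neutrophil and inflammatory genes. The sequences are RefSeq promoter windows on GRCm38.p6, running from 250 bases before to 50 bases after a gene's start, printed 5′ to 3′ on the strand of the gene. Capitals mark an NF-kB motif (GGG, any 2 bases, TTTCC) in Cxcl1 and Cxcl2, TTGCNNAA in Clec4e and GAGGAAG in Csf3r, each searched on both strands. The Clec4e match lies on the strand opposite to the gene, so its capitals print the reverse complement of the motif.
Cxcl1 (chr5:90891166-90891191, plus strand): tgtactccGGGAATTTCCctggcccg
Cxcl2 (chr5:90903794-90903819, plus strand): tgagctcaGGGAATTTCCctggtccc
Clec4e (chr6:123289922-123289945, minus strand): ccttgtccTTGTGCAAgagaggaa
Csf3r (chr4:126024565-126024587, plus strand): cttcctgaGAGGAAGgggctgtc

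The match began 71 bases before the start of Cxcl1, 97 before that of Cxcl2, 66 before that of Clec4e and 86 before that of Csf3r. Among 211 genes with a promoter window that were called at least 32-fold higher in PMN-MDSC, 4.74% held the NF-kB motif, 30.3% GAGGAAG and 12.8% TTGCNNAA. The same motifs were held by 2.16%, 16.5% and 10.0% of 8176 tested genes with a window, and by 1.89%, 15.4% and 12.2% of all 27025 genes with a window. Of 50 genes called at least 32-fold lower, 0 held the NF-kB motif, 8 held GAGGAAG and 6 held TTGCNNAA. TGACTCA, the AP-1 motif, was held by 7.58% of the higher and 4.00% of the lower genes, and TATAAA by 18.96% and 16%, against 4.78% and 8.83% of tested genes and 5.95% and 15.7% of all genes with a window. These are matches of letters in windows of 300 bases, and binding was not measured.

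Transcripts on lists drawn up for neutrophils were far more abundant in the sorted cells than in bulk tumor. Of the 80 tested genes on 8 neutrophil lists (sorting antigens, granule proteins, cytosolic proteins, surface receptors, NADPH oxidase, transcription factors and cytokines), 71 were called higher and 0 lower, against 21% and 19.6% of all genes, with a median log2 fold change of 6.24. The filter used the mean over both groups, so a gene nearly absent from bulk tumor was tested only if abundant in PMN-MDSC. The direction of such genes was fixed by the filter, and these counts are a description. Of the 80, 51 had over 3 counts in every bulk tumor library, and 49 of these stood at or above their bulk mean in PMN-MDSC. Several of the 8 lists are not restricted to neutrophils. Tumor M-MDSC held 5239.5 to 7505 CPM of the surface receptors against 6215 to 11213 CPM in tumor PMN-MDSC, 2562 to 2735 against 2232 to 3394 CPM of the NADPH oxidase and 5189 to 6324 against 4838 to 6831 CPM of the transcription factors, so that these ranges overlapped. They overlapped as well for the sorting antigens (1795 to 2609.9 against 1448 to 2303 CPM), for the primary granule proteins (4.22 to 147 against 4.88 to 8.30 CPM), for the secondary and gelatinase granule proteins (5061 to 8363 against 5004 to 7609 CPM) and for the cytokines (9084 to 16611 against 14906 to 22618 CPM). Of the 8 lists, the cytosolic proteins alone had ranges that did not overlap, at 322 to 600.0 against 1203 to 3854 CPM.

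Of 24 tested surface receptors, all 24 were called higher, with a median log2 fold change of 6.02. Of these, 16 had over 3 counts in every bulk tumor library. Csf3r, the receptor for G-CSF, stood at 654, 1693, 1542 and 2012 CPM in tumor PMN-MDSC and 4.21, 7.88, 6.27 and 4.03 CPM in bulk tumor. The groups were far apart, with a log2 fold change of 8.07 ± 0.44 (adjusted p = 3.70e-08, edgeR), and library 1 was the lowest of the sorted libraries. Cxcr2, the receptor for CXCL1 and CXCL2, was again lowest in library 1, with 95.4, 342, 240.2 and 324 CPM against 0.495, 0.492, 0.708 and 0.807 CPM (log2 fold change 8.53 ± 0.49). Clec4e, a C-type lectin that senses mycobacterial and dead-cell ligands, was at 699, 1119, 1154 and 1017 CPM against 0.247, 0.738, 0.404 and 0.706 CPM (log2 fold change 10.88 ± 0.35). The least different receptor was Tlr4, which recognizes lipopolysaccharide, at a log2 fold change of 2.63 ± 0.21 and 19.2, 30.03, 30.2 and 18.4 CPM in bulk tumor.

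All 10 tested cytosolic proteins of neutrophils were called higher, with a median of 8.40. The median was 8.38 when Retnlg, which had 0 counts in bulk tumor, is set to its bound. Only 3 of the 10 had over 3 counts in every bulk tumor library, so the filter fixed the direction of most. S100a9, the partner of S100a8, was at 191, 1003, 971 and 679.6 CPM in tumor PMN-MDSC and 0.619, 4.43, 0.708 and 0.908 CPM in bulk tumor. Hdc, the enzyme that makes histamine, was at 367, 1049, 1057 and 1077 CPM against 0.247, 0.738, 0.303 and 0.202 CPM (log2 fold change 11.33 ± 0.53, adjusted p = 1.57e-08, edgeR), and G0s2, an inhibitor of fat breakdown, at 285, 906, 674 and 944 CPM against 0.495, 0.738, 0.303 and 0.303 CPM. In each of these 3 genes library 1 was the lowest sorted library and the groups did not overlap. Retnlg, a secreted resistin-like protein of neutrophils, was at 15.4, 32.9, 94.3 and 22.8 CPM and at least 441-fold higher than in bulk tumor, where the bound rests on 3 counts over its 4 libraries, and it lost its call without bulk tumor library 1 or 4 or with thinned bulk libraries.

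Granule genes were split. Of 13 tested genes of secondary and gelatinase granules, 8 were called higher and 0 lower, with a median of 7.65. Of the 13, 5 had over 3 counts in every bulk tumor library. The spread among sorted libraries was large. Lactoferrin (Ltf) was at 39.1, 575, 775 and 73.3 CPM in tumor PMN-MDSC and the granule protein Ngp at 37.1, 765, 732 and 25.5 CPM, with libraries 2 and 3 far above libraries 1 and 4 in both. Neither passed the threshold (adjusted p = 0.00213 and 0.00697, edgeR), although bulk tumor did not exceed 7.38 CPM. Both were called higher with DESeq2 (adjusted p = 1.64e-07 and 4.46e-05), which called 11 of the 13 genes, and without robust fitting, and Ltf also with tumor M-MDSC in the fit. Mmp9, the gelatinase that names its granule, was more even at 469, 582, 808 and 965 CPM against 3.71, 1.48, 2.33 and 5.85 CPM (log2 fold change 7.65 ± 0.43). Annexin Anxa1, which is also made by many other cells, did not differ beyond its error at −0.06 ± 0.20, with 109.9 to 186 CPM in tumor PMN-MDSC and 119.9 to 185 CPM in bulk tumor. The 5 primary granule genes Mpo, Elane, Prtn3, Ctsg and Ms4a3, which are transcribed in promyelocytes, had too few counts to be tested, and Elane and Ctsg were at 0 in all 8 libraries.

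All 6 subunits of the NADPH oxidase, which makes superoxide, were called higher, from a log2 fold change of 2.32 ± 0.31 for Cybb to 6.44 ± 0.32 for Ncf1. Among 10 tested myeloid transcription factors, 7 were called higher. Spi1, which encodes PU.1, was at 246, 293, 351 and 395 CPM against 4.45, 6.89, 6.98 and 9.88 CPM, and Cebpb, a factor of emergency granulopoiesis, at 1294, 1704, 2085 and 2308 CPM against 41.2, 42.6, 56.3 and 41.7 CPM. Cebpd, Klf4 and Lmo4 were not called, and their log2 fold changes were 0.48 ± 0.24, 1.50 ± 0.56 and −0.71 ± 0.20.

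**Figure D2:**
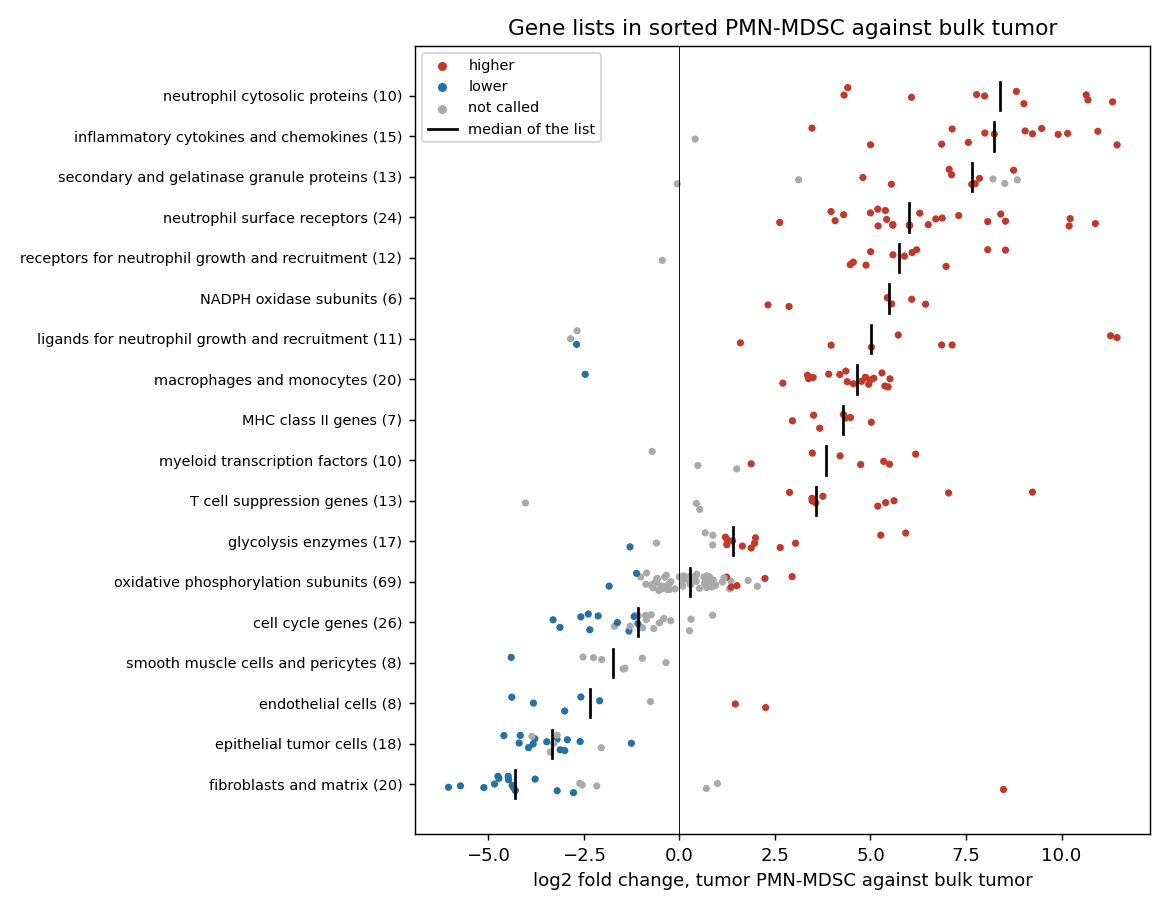
Log2 fold change of tumor PMN-MDSC over bulk tumor for each tested member of 18 gene lists with at least 5 tested members (number in brackets). Points are genes, red if called higher, blue if called lower and grey if not called, and black lines are list medians, which run from −4.31 for fibroblasts and matrix to 8.40 for neutrophil cytosolic proteins.

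Inflammatory mediators were among the genes that differed most. Of the 10 protein-coding genes highest in PMN-MDSC whose libraries did not overlap, Cxcl2, Cxcl1 and Osm act as such mediators, and the others were Hdc, Clec4e, G0s2 and Retnlg, described above, the chemokine-binding receptor Ccrl2, the amplifying receptor Trem1 and the chaperone Hspa1a. Of 15 tested cytokine and chemokine genes and related mediators, 14 were called higher, with a median log2 fold change of 8.24. Over 3 counts in every bulk tumor library were held by 9 of the 15. Cxcl2, a ligand of CXCR2, was at 1243, 2311, 2413 and 2116 CPM in tumor PMN-MDSC and 0.619, 0.984, 0.404 and 0.908 CPM in bulk tumor, a log2 fold change of 11.45 ± 0.39 (adjusted p = 2.84e-09, edgeR). Cxcl1, its neighbour on chromosome 5, was at 166, 133, 179.9 and 83.9 CPM, with 1 count in all of bulk tumor and a ratio of 4541 (95% counting interval 813 to 179509.8). Inhba, an activin subunit, was the 1 member not called, at 0.41 ± 0.32. Tumor M-MDSC held 583 to 1145 CPM of Cxcl2, and spleen PMN-MDSC 4.86 to 21.1 CPM.

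Il1b, which encodes interleukin-1β, was at 5906, 8818, 9199 and 9546 CPM against 8.91, 11.8, 7.78 and 6.66 CPM (log2 fold change 9.91 ± 0.35). Its mean of 4388 FPKM was the highest of all protein-coding genes in tumor PMN-MDSC, closely followed by the macrophage transcript Apoe at 4353 FPKM. By mean CPM, Apoe stood above Il1b there, at 9308 against 8367 CPM. Tnf was at 337, 408, 537 and 299 CPM against 0.495, 0.984, 0.607 and 0.908 CPM, and oncostatin M (Osm), an IL-6 family cytokine, at 471, 445, 554 and 467 CPM against 0.247, 0.246, 0.101 and 0.303 CPM. Ptgs2, the cyclooxygenase COX-2 that starts prostaglandin synthesis, was at 2523, 4326, 3579 and 3893 CPM against 8.79, 4.18, 4.45 and 5.95 CPM. In none of these genes did the bulk tumor and tumor PMN-MDSC libraries come near each other. Tumor M-MDSC held 541 to 1222 CPM of Osm and 4183 to 7346 CPM of Il1b. Spleen PMN-MDSC held 49.3 to 128 CPM of Osm and 1771 to 4433 CPM of Il1b.

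Among 11 tested ligands for neutrophil growth and recruitment, 8 were called higher in PMN-MDSC and 1 lower, against 21% and 19.6% of all genes. Csf1, the macrophage growth factor, was at 181, 434, 433 and 548 CPM against 8.54, 15.01, 10.01 and 15.7 CPM, and Vegfa, which drives vessel growth, at 908, 544, 999.9 and 809 CPM against 297, 238, 303 and 241 CPM. Kitl, which encodes stem cell factor, was the ligand called lower, at 12.8, 14.6, 5.24 and 4.25 CPM in tumor PMN-MDSC and 53.8, 61.3, 52.3 and 63.9 CPM in bulk tumor (log2 fold change −2.69 ± 0.32, adjusted p = 1.53e-05, edgeR). Il33, an alarmin of barrier cells, and the chemokine Cxcl5 had lower values in the sorted cells without passing the threshold (−2.85 ± 0.80 and −2.67 ± 0.59), although Cxcl5 passed it without sorted library 2 (−3.45), with upper-quartile scaling or library totals (−2.94 in both), with DESeq2 (−2.66) and without a filter on low counts (−2.90). Csf3 and Csf2, which encode G-CSF and GM-CSF, had too few counts to be tested, at 0 to 0.101 and 0.984 to 1.86 CPM in bulk tumor and 0.610 to 5.68 and 1.06 to 8.96 CPM in tumor PMN-MDSC. Of the 12 tested receptors on the matching list, 11 were called higher, and Il6st, the shared IL-6 receptor subunit, was not called at −0.45 ± 0.18.

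Of 13 tested genes linked to suppression of T cells, 10 were called higher and 0 lower, against 21% and 19.6% of all genes, with a median log2 fold change of 3.57. Cd274, which encodes PD-L1, was at 214, 355, 272 and 276 CPM against 4.70, 5.91, 8.80 and 10.6 CPM. Ido1, an enzyme that degrades tryptophan, went the other way in value without passing the threshold, with 2.10, 40.9, 18.6 and 13.6 CPM in bulk tumor and 2.56, 1.22, 0 and 1.06 CPM in tumor PMN-MDSC (adjusted p = 0.00801, edgeR), and was called lower without bulk library 1 (−4.41) and with DESeq2 (−4.05), which thus called 1 of the 13 lower. Nos2, the inducible nitric oxide synthase, was too low to be tested at 9.60, 8.54, 6.99 and 13.8 CPM in tumor PMN-MDSC.

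Metabolic and cell cycle genes differed less. Of 17 glycolysis genes, 12 were called higher and 1, the muscle-type phosphofructokinase Pfkm, lower, with a median of 1.39. Pfkm, at −1.29 ± 0.23, lost its call without bulk tumor library 1, 2 or 3, without sorted library 2, 3 or 4, with thinned bulk libraries and with tumor M-MDSC in the fit, where it lay between −1.32 and −1.19. The glucose transporter Slc2a3 rose most, from 0.495, 3.20, 1.62 and 2.42 CPM in bulk tumor to 32.6, 166, 117 and 131 CPM in tumor PMN-MDSC. Of 69 subunits of oxidative phosphorylation, 5 (Sdhb, Cox5b, Cox6a1, Atp5d and Cox8a) were called higher and 2 (Ndufc1 and Cox7b) lower, with a median of 0.27, while 21% and 19.6% of all genes were called. Of these 7, Cox6a1 and Atp5d kept their call without any 1 library, Cox8a lost it without bulk library 3 or sorted library 1 and Ndufc1 without sorted library 2 or 3. Sdhb kept it only without bulk library 4 or sorted library 2, Cox5b without bulk library 2 or 4 or sorted library 1, and Cox7b without bulk library 3 or 4. The balance of this list turned with the scaling. With upper-quartile scaling 3 subunits were called higher and 5 lower, on library totals 3 and 4, and with DESeq2 9 and 2. Library totals alone moved the median of the oxidative phosphorylation list to −0.01, a shift of −0.28, beside a shift of −0.27 in the median over all genes. Of 26 cell cycle genes, 10 were called lower and 0 higher, with a median of −1.08. Top2a, the topoisomerase of dividing cells, was at 553, 589, 288 and 425 CPM in bulk tumor and 96.7, 123, 93.9 and 52.6 CPM in tumor PMN-MDSC (log2 fold change −2.34 ± 0.29).

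A further list, of immediate early and heat shock genes, was added after its members' values had been seen, and its counts are a description. These genes are known to be induced within minutes when cells are handled or warmed. Of 19 tested, 15 were called higher in PMN-MDSC and 0 lower. Fosb, an AP-1 subunit, was at 1008, 522, 1239 and 1169 CPM against 1.36, 1.48, 1.01 and 1.01 CPM, and Egr1, an early growth response factor, at 1098, 1132, 1858 and 1579 CPM against 7.55, 5.66, 10.5 and 12.6 CPM. Tumor M-MDSC, also sorted from dissociated tumors, held 422 to 1129 CPM of Fosb and spleen PMN-MDSC 12.3 to 36.5 CPM. Hspa1a, the inducible HSP70, had 2 counts in all of bulk tumor and 208, 173, 131 and 299 CPM in tumor PMN-MDSC, whereas Hsp90aa1 and Hsph1 were not called (−1.03 ± 0.30 and −0.37 ± 0.50), although Hsp90aa1 was called lower without a filter on low counts (−1.25). The part of sample preparation in these differences was not tested.

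The level in bulk tumor can also be given relative to the sorted cells. Only transcripts with more than 50 CPM in tumor PMN-MDSC enter, so the choice favours low percentages, and the values describe these transcripts without a test. Over them, bulk tumor held a median of 5.11% of their level for 7 MHC class II genes, 4.57% for 18 macrophage genes, 2.27% for 6 NADPH oxidase genes and 1.54% for 22 surface receptors. For 8 neutrophil cytosolic proteins and 15 inflammatory mediators the medians were 0.279% and 0.314%. Single genes on the 9 lists plotted reached from 0.0361% for Cxcl2 and 0.0456% for Hspa1a, over 20.1% for Cybb and 74.7% for Inhba, to 204% for Hsp90aa1 and 552% for Spp1, the last 2 of which were more abundant in bulk tumor. For 9 myeloid transcription factors the median was 5.41%.

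**Figure D3:**
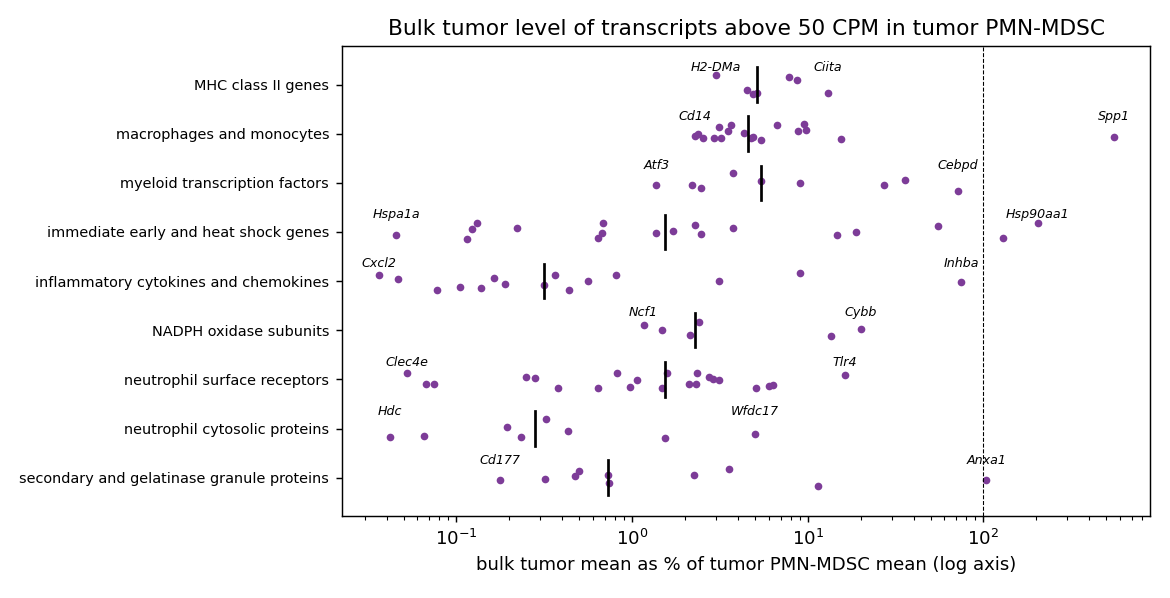
Mean level in bulk tumor as a percentage of the mean level in tumor PMN-MDSC (log axis) for members of 9 lists with over 50 CPM in tumor PMN-MDSC. Points are genes, with the lowest and highest of each list named, and black lines are medians, from 0.279% for neutrophil cytosolic proteins to 5.41% for myeloid transcription factors.

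Several of the genes that were lowest in PMN-MDSC had no counts in the sorted cells. Among the 10 lowest protein-coding genes whose libraries did not overlap, Tmem136, Lox, Epha3, Foxc1, Casc4, Slc17a4, Nkd2, Lysmd2 and Pfn2 had 0 counts in all 4 sorted libraries, and were at least 15.8-fold (Pfn2) to 43.9-fold (Tmem136) lower, with bounds set at 3 counts over the group. Casc4 lost its call with tumor M-MDSC in the fit, and Slc17a4 without bulk tumor library 2 or 3 or without any 1 sorted library. Lox, which crosslinks collagen, was at 15.5, 9.84, 10.5 and 19.6 CPM in bulk tumor. The collagen gene Col8a1 was at 43.7, 43.6, 36.6 and 38.1 CPM in bulk tumor with 2 counts in the sorted cells, a ratio of 147 (95% counting interval 40.5 to 1212). Hsp90ab1, a constitutive chaperone, and Spp1, which encodes osteopontin, were among the 10 transcripts with the highest FPKM in bulk tumor, with means of 2159 and 1490.1 FPKM. Spp1 was the 1 member of the macrophage list that was called lower, at 2772, 2519.7, 2448 and 2083 CPM in bulk tumor and 651, 386, 438 and 304 CPM in tumor PMN-MDSC.

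Of 2178 genes called lower, 1432 still had over 3 counts in each of the 4 tumor PMN-MDSC libraries, and 21 had 0 counts in all of them. Their median level in the sorted cells was 20.0% of that in bulk tumor. Of the 745 genes at least 8-fold lower, 203 remained by the same rule, at a median of 6.88% over all 745. The median over these 745 genes was 10.7, 8.16, 2.11 and 3.73% of the bulk level in sorted libraries 1 to 4, so libraries 1 and 2 stood above libraries 3 and 4. In spleen PMN-MDSC it was 0, 1.396, 0 and 0.410% and in tumor M-MDSC 0, 3.74, 1.68 and 0%. The genes were chosen by this contrast, and the percentages describe them without a test.

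Non-myeloid transcripts in the sorted cells were then counted over lists for 14 cell types. Of their 198 genes in the table, 42 had over 3 counts in each tumor PMN-MDSC library, 27 had 0 counts in all 4, and 62 were tested, of which 34 were called lower and 6 higher, against 19.6% and 21% of all genes. Over 59 tested members with over 3 counts in each bulk tumor library, the median level in sorted cells was 11.2% of that in bulk tumor, and 15.9, 12.6, 3.39 and 7.39% in libraries 1 to 4. Against spleen PMN-MDSC 25 members could be tested, and 8 were called higher in tumor PMN-MDSC (Cdh1, Eng, Fbln2, Itga6, Krt18, Krt8, Mmp2 and Pf4) and 8 lower, where 9.16% and 12.5% of all genes were called. The 8 higher calls became 5 without tumor PMN-MDSC replicate 2, spleen PMN-MDSC replicate 2 or spleen PMN-MDSC replicate 3, and 13 with DESeq2.

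Epithelial transcripts were left in every sorted library at unequal levels. Of 18 tested epithelial genes, 13 were called lower in PMN-MDSC and 0 higher, with a median log2 fold change of −3.33. Krt8, a keratin of simple epithelia, was at 2324, 2676, 1654 and 1601 CPM in bulk tumor and 259.9, 171, 42.4 and 64.8 CPM in tumor PMN-MDSC, and was at 0 in all 4 spleen PMN-MDSC libraries. This was 12.6, 8.28, 2.05 and 3.14% of the bulk mean in libraries 1 to 4, and Krt8 lost its call without a filter on low counts (adjusted p = 0.00296, edgeR). Krt19, a keratin of ducts, was at 154, 112, 14.8 and 31.9 CPM against 752, 804, 587 and 707 CPM, again highest in libraries 1 and 2, and was not called (−3.20 ± 0.64, adjusted p = 0.00175, edgeR), but was called lower without sorted library 1 (−3.74) or 3 (−2.82), and with DESeq2 or without robust fitting (−3.20 in both). The adhesion gene Cdh1 remained at 22.3, 16.7, 5.80 and 7.90% of the bulk mean, and Sox9, a factor of ductal cells, at 22.5, 16.2, 3.70 and 5.78%. The order of libraries was the same in all 4 genes, with library 1 first and library 3 last.

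The 24 epithelial genes together summed to 1254, 897, 306 and 441 CPM in sorted libraries 1 to 4, or 17.4, 12.4, 4.24 and 6.12% of the bulk mean, and to 164 to 291 CPM in spleen PMN-MDSC. Part of the list also had counts in the spleen PMN-MDSC libraries. Klf5, a factor of epithelial progenitors, was at 50.6 to 114 CPM there, above its 12.7 to 29.9 CPM in tumor PMN-MDSC. In tumor M-MDSC, Krt8 was at 4.41, 114, 35.3 and 46.4 CPM, so that libraries of either sorted cell type held it and differed within each type.

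Collagen transcripts were lower in the sorted cells, whereas the sum of the whole fibroblast and matrix list was not. Of 20 tested fibroblast and matrix genes, 14 were called lower, and the 8 chains of fibrillar and type VI collagen on the list, grouped after their values had been seen, were all among them. Col1a1 was at 454, 312, 318 and 318 CPM in bulk tumor and 10.2, 18.3, 12.7 and 7.96 CPM in tumor PMN-MDSC (log2 fold change −4.84 ± 0.26, adjusted p = 2.62e-08, edgeR), and Col3a1 at 309, 265, 291 and 321 and 9.60, 16.5, 10.04 and 24.4 CPM. The 26 genes of the whole list summed to 146, 69.9, 127 and 108% of the bulk mean in sorted libraries 1 to 4, and fibronectin, given below, made up most of that sum. The 8 chains alone summed to 3.77, 5.33, 2.64 and 4.51% of the bulk mean in libraries 1 to 4. Library 1, the highest for keratins, was not the highest for collagens, which was library 2.

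3 genes of the matrix list did not follow it. Pi16, a peptidase inhibitor used as a marker of fibroblasts, was called higher at 16.6, 39.7, 30.1 and 38.2 CPM against 0, 0, 0 and 0.202 CPM, but spleen PMN-MDSC held 350.4 to 955 CPM. Fibronectin (Fn1) was at 6805, 3165, 6015 and 5034 CPM in tumor PMN-MDSC and 2773, 3009, 2734 and 2014 CPM in bulk tumor and was not called (adjusted p = 0.00455, edgeR), and tumor M-MDSC held 5922 to 9090.2 CPM. Mmp2, a gelatinase, was at 51.9, 40.9, 32.3 and 41.4 CPM against 30.2, 25.3, 22.5 and 23.5 CPM and at most 1.31 CPM in spleen PMN-MDSC.

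**Figure D4:**
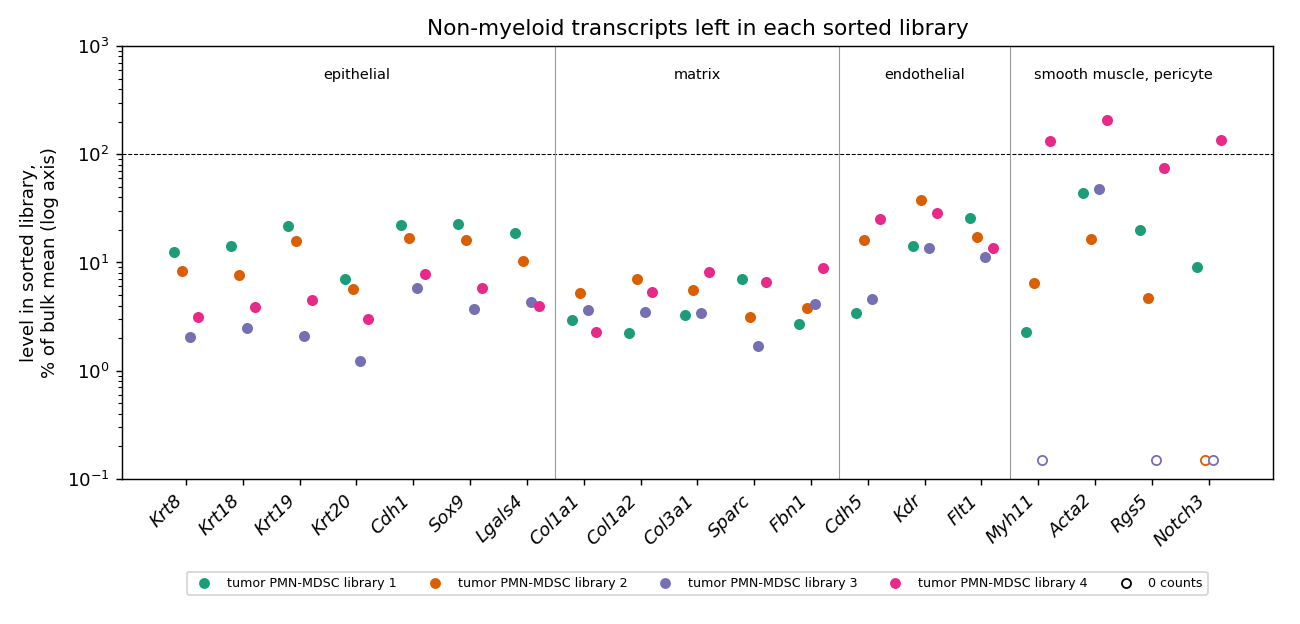
Level of 19 non-myeloid transcripts in each of the 4 tumor PMN-MDSC libraries as a percentage of their bulk tumor mean (log axis, dashed line at 100%). Each point is a gene in a library and open points are 0 counts; epithelial transcripts were highest in libraries 1 and 2, and Myh11, Acta2, Rgs5 and Notch3 in library 4.

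Transcripts of smooth muscle and pericytes were highest in sorted library 4. Myh11, the heavy chain of smooth muscle myosin, was at 0.640, 1.83, 0 and 37.2 CPM in tumor PMN-MDSC and 28.95, 42.6, 32.6 and 8.07 CPM in bulk tumor. Rgs5, a pericyte gene, was at 5.12, 1.22, 0 and 19.1 CPM against 17.7, 27.6, 32.05 and 26.3 CPM, and Notch3, a receptor of vessel walls, at 0.640, 0, 0 and 9.56 CPM against 5.20, 10.1, 8.29 and 4.74 CPM. None of these 3 was called, and without library 4 all were called lower, at log2 fold changes of −5.16 for Myh11, −3.73 for Rgs5 and −5.05 for Notch3. Of 8 tested genes on this list 1 (Abcc9) was called lower, where 19.6% of all genes were. The list summed to 22.2, 12.97, 8.25 and 87.4% of the bulk mean in libraries 1 to 4. Acta2 is not specific here, since spleen PMN-MDSC held 30.4 to 53.5 CPM of it.

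Of 8 tested endothelial genes, 5 were called lower and 2 higher. The endothelial cadherin Cdh5, the VEGF receptors Kdr and Flt1, Plvap and Aqp1 were those called lower, with Cdh5 at 0.640, 3.05, 0.873 and 4.78 CPM in tumor PMN-MDSC and 15.1, 24.9, 19.2 and 16.2 CPM in bulk tumor. Pecam1, which encodes CD31 and is also carried by leukocytes, was called higher at 46.7, 62.8, 60.3 and 47.8 CPM against 15.7, 27.3, 20.02 and 16.7 CPM, and spleen PMN-MDSC held 32.1 to 78.04 CPM. Kdr lost its call without sorted library 1, 3 or 4 (−2.17 to −1.85), and Aqp1 without any 1 bulk library, without sorted library 2, 3 or 4 or with DESeq2 (−4.03 to −3.29). Endoglin (Eng) was called higher at 40.3, 33.6, 33.2 and 32.4 CPM against 6.43, 8.37, 7.99 and 6.45 CPM. The vessel genes Emcn and Cldn5 were at 0 in all 4 sorted libraries.

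Enzymes of acinar cells had higher values in most sorted libraries than in bulk tumor, without passing the threshold. Amy2a5, a pancreatic amylase, was at 49.3, 131, 13.97 and 10.6 CPM in tumor PMN-MDSC and 9.90, 0, 5.56 and 12.8 CPM in bulk tumor, and was 0 in spleen PMN-MDSC. The difference was not called (log2 fold change 2.76 ± 1.02, adjusted p = 0.0418, edgeR), and library 2 stood far above the others. Pancreatic lipase (Pnlip) was at 2.56, 29.9, 1.75 and 1.59 CPM and chymotrypsinogen Ctrb1 at 20.5, 28.7, 20.1 and 4.25 CPM in tumor PMN-MDSC, against at most 0.247 and 8.37 CPM in bulk tumor. Ctrb1 was called higher without bulk library 4 (3.65). The 30 acinar genes summed to 157, 348, 109.6 and 49.4 CPM in tumor PMN-MDSC, 27.6, 7.63, 21.2 and 48.2 CPM in bulk tumor and 10.9 to 58.7 CPM in tumor M-MDSC. The 12 endocrine genes summed to 1.92, 7.32, 0.873 and 1.59 CPM in tumor PMN-MDSC and 3.59, 12.3, 0.303 and 28.2 CPM in bulk tumor, and library 2 was again the highest of the sorted libraries.

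**Figure D5:**
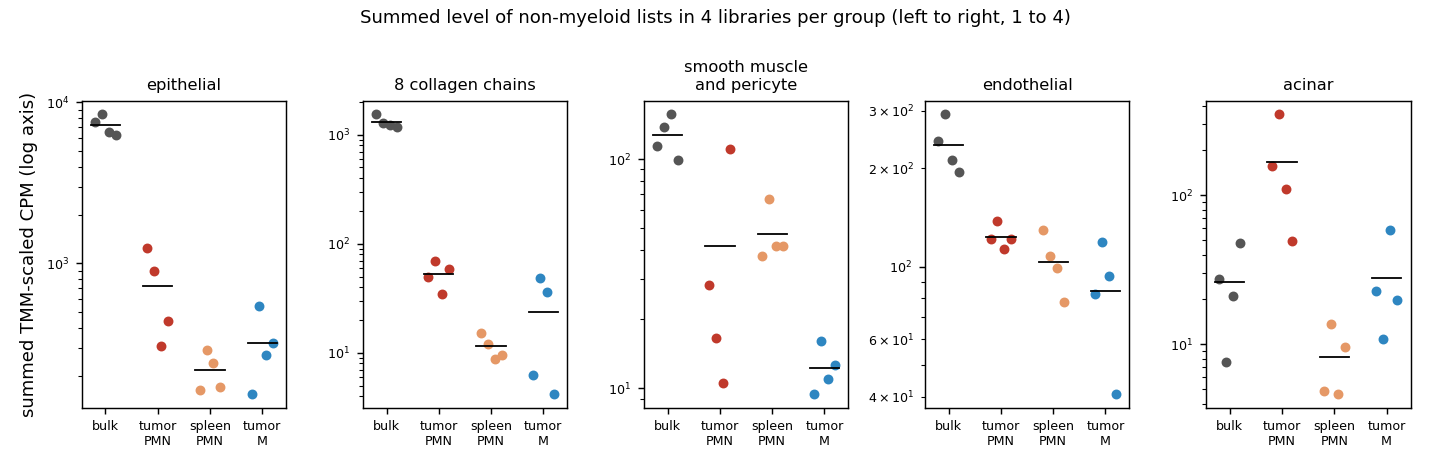
Summed TMM-scaled CPM (log axes, each panel with its own scale) of 5 non-myeloid lists in bulk tumor, tumor PMN-MDSC, spleen PMN-MDSC and tumor M-MDSC. Points are libraries 1 to 4 from left to right and lines are means; epithelial and collagen transcripts were highest in bulk tumor, and acinar transcripts in tumor PMN-MDSC.

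The T cell list summed to 28.1 to 44.5 CPM in tumor PMN-MDSC and 13.98 to 73.3 CPM in bulk tumor, and the list of B cells and plasma cells to 62.4 to 129 and 2.97 to 8.61 CPM, so that the latter did not overlap. Of 20 T cell genes only 2 had enough counts to be tested, and of these Cd4 was called higher in PMN-MDSC, at 23.05, 22.6, 25.8 and 22.8 CPM against 1.61, 4.92, 3.84 and 3.73 CPM. Cd4 is also transcribed by mouse macrophages and dendritic cells, and the T cell receptor gene Cd3e was at 0, 0.610, 0 and 0 CPM in tumor PMN-MDSC and 1.61, 4.68, 3.94 and 5.75 CPM in bulk tumor. Ighm, the heavy chain of IgM, was called higher at 48.7, 97.01, 55.02 and 62.1 CPM against 0.619, 2.71, 2.33 and 3.03 CPM, with 128 to 280.3 CPM in spleen PMN-MDSC. The light chain Igkc was uneven at 52.5, 13.4, 1.75 and 0 CPM in tumor PMN-MDSC. Pf4, a platelet chemokine that some macrophages also make, was called higher at 66.6, 42.1, 55.02 and 70.6 CPM against 2.10, 1.23, 1.82 and 5.55 CPM and was at most 0.810 CPM in spleen PMN-MDSC.

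Among other myeloid lists, 27 of 29 tested genes were called higher in PMN-MDSC and 1 lower, with a median log2 fold change of 4.39. Cd74, the invariant chain that accompanies MHC class II, was at 6559.9, 4580.4, 5389 and 5218 CPM against 205, 579, 429.8 and 494 CPM, and tumor M-MDSC held 2742 to 4230.1 CPM. H2-Ab1, an MHC class II chain, was at 1685, 1316, 1468 and 1351 CPM against 35.8, 91.6, 76.5 and 93.8 CPM. The MHC class II genes of the list summed to 8283 to 11384 CPM in tumor PMN-MDSC and 5909.9, 2243, 1563 and 1913 CPM in spleen PMN-MDSC, so these groups did not overlap, and spleen library 1 stood above the others. Against spleen PMN-MDSC, 1 of 7 MHC class II genes (H2-DMa) was called higher, where 9.16% of all genes were. Over all of these myeloid lists 16 genes were called higher in tumor PMN-MDSC, and 24 without spleen library 1 or with DESeq2. Siglecf, a receptor of eosinophils that neutrophils of tumors can also carry, was at 81.9, 189.8, 162 and 219 CPM against 0.866, 1.72, 0.505 and 0.504 CPM, and spleen PMN-MDSC held 38.5 to 126 CPM. The macrophage genes Mrc1 and Adgre1 were at 1387, 996, 1186 and 1024 and 394, 439, 372 and 389 CPM in the sorted libraries, without the drop in library 3 that keratins showed.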

How the data were processed

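RNA was sequenced from bulk orthotopic pancreatic tumors and from MDSC sorted from tumors and spleens, and the deposited table holds 1 column of raw counts per library. Per the labels and the study's methods, the authors aligned reads to mm10 with ContextMap and BWA and counted fragments per Gencode gene, by strand, with featureCounts (Subread 1.4.6-p3), and deposited counts without normalization. Symbols come from GENCODE M21, which matched 53274 of 53379 identifiers. Groups follow the column names, whose running number is not the replicate number of the titles.

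Genes that averaged 25 or more counts in the compared libraries were tested with TMM scaling and edgeR's robust quasi-likelihood F-test (edgeR 4.0.16, R 4.3.3) with Benjamini-Hochberg adjustment. DESeq2 1.42.0 served as an alternative. Scripts were tested on simulated counts. A transcript remained in sorted cells if it had over 3 counts in each tumor PMN-MDSC library. FPKM was computed from counts and exon length. Tables were drawn up with pandas 2.3.3.

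Members, gene lists and tests were chosen with earlier results of these data known. The text names the 10 highest and 10 lowest called protein-coding genes without overlap between the groups and list members called against the others. It names some of the genes with the highest FPKM, of the sorting antigens and of the leading list members. Others were chosen for their role after their values were seen. The study counts its MDSC groups in mice, so those libraries were taken as separate mice. The bulk titles share their replicate numbers with the untreated MDSC titles. Whether they came from those mice is not stated in the sources used here. Some items are not reported here. Replicates within each of the 4 groups used here differed by more than sampling noise. Alternatives were other scalings, filters and thresholds, thinned bulk libraries, M-MDSC added as another group and leaving out each library.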

Additional observations from a re-analysis of the deposited data

Results flagged for a closer look

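Of 280 sets of 4 libraries examined, which were the genes and list sums of the text within each group, 22 held a library whose gap to its nearest neighbour was beyond the critical value of Dixon's test for the range of the set. Chance gives about 1 in 20 such sets, and no cause was tested.

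Bulk tumor library 1 stood above its group for 2 of them. Col1a1 was at 454 CPM against 312 to 318 CPM in the others. Il33 was at 77.5 CPM against 23.4 to 30.2 CPM in the others.

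Bulk tumor library 1 stood below its group for 1 of them. Adgre1 was at 10.9 CPM against 21.4 to 22.4 CPM in the others.

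Bulk tumor library 2 stood above its group for 5 of them. Cxcl5 was at 29.3 CPM against 16.5 to 17.7 CPM in the others. Klf4 was at 152 CPM against 37.3 to 55.3 CPM in the others. Ltf was at 4.18 CPM against 0 to 0.303 CPM in the others. Ngp was at 7.38 CPM against 0 to 0.303 CPM in the others. S100a9 was at 4.43 CPM against 0.619 to 0.908 CPM in the others.

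Bulk tumor library 3 stood above its group for 1 of them. Cebpb was at 56.3 CPM against 41.2 to 42.6 CPM in the others.

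Tumor PMN-MDSC library 1 stood above its group for 2 of them. Eng was at 40.3 CPM against 32.4 to 33.6 CPM in the others. Hsp90ab1 was at 1843 CPM against 1316 to 1405 CPM in the others.

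Tumor PMN-MDSC library 1 stood below its group for 4 of them. Ccrl2 was at 600.5 CPM against 855 to 906 CPM in the others. Hdc was at 367 CPM against 1049 to 1077 CPM in the others. The summed level of neutrophil cytosolic proteins was at 1203 CPM against 3491 to 3854 CPM in the others. The summed level of T cell suppression genes was at 5304 CPM against 6932 to 7117 CPM in the others.

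Tumor PMN-MDSC library 2 stood above its group for 3 of them. Pnlip was at 29.9 CPM against 1.59 to 2.56 CPM in the others. The summed level of pancreatic endocrine cells was at 7.32 CPM against 0.873 to 1.92 CPM in the others. The summed level of adipocytes was at 4.27 CPM against 0 to 0.640 CPM in the others.

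Tumor PMN-MDSC library 3 stood above its group for 1 of them. Cd4 was at 25.8 CPM against 22.6 to 23.05 CPM in the others.

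Tumor PMN-MDSC library 4 stood above its group for 3 of them. Acta2 was at 30.3 CPM against 2.44 to 6.99 CPM in the others. Myh11 was at 37.2 CPM against 0 to 1.83 CPM in the others. Notch3 was at 9.56 CPM against 0 to 0.640 CPM in the others.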

How the results depend on the processing

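The counts of genes called higher stayed between 1744 and 3195 over the alternatives, against 2336, and those of lower genes between 1604 and 3048, against 2178, except without a filter on low counts, where 3790 were called lower. DESeq2 called 2534 genes higher and 2701 lower and shared 2329 and 2176 with edgeR. List members called higher and lower numbered 141 and 49, against 88 and 32 when at least 10 counts were required in every library, while no filter gave 77 lower, and these settings change which genes are tested. Leaving out a library gave 137 to 145 higher and 40 to 47 lower list members, and 2141 to 2352 higher and 1604 to 2120 lower genes. Against spleen PMN-MDSC, the 8 non-myeloid members called higher became 13 with DESeq2 and 5 to 8 without a library, and the cause was not tested. The 42 remaining members became 22 at over 10 counts and 43 to 50 without a library. The median level of 11.2% of bulk tumor over 59 members was 9.35% on library totals, 8.10% as the median over libraries and 7.81 to 14.2% without a library. Of 106 genes named, 26 changed call or direction under any alternative. Anxa1, at −0.06, changed sign without bulk tumor library 4 (0.050) and without sorted library 1 (0.045) or 4 (0.090), within a range of −0.18 to 0.090 without a library, and was at −0.34 with upper-quartile scaling, −0.33 on library totals and −0.34 with at least 10 counts in every library. Depth limited low transcripts, since 3 counts were up to 1.92 CPM in tumor PMN-MDSC, 2.43 CPM in spleen PMN-MDSC and 4.22 CPM in tumor M-MDSC. No paired analysis was possible from the column names alone, because they carry a running number and not the replicate number of the titles. Matching columns to titles by their order was not tried, so the replicate block was not run. How the calls would change with such a block was not tested.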
